A study of Mus musculus with 6 samples.

Results

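The 10 genes described are the matrix metalloproteases Mmp8, Mmp9 and Mmp25, the membrane proteases Adam8, Adam10, Adam17 and Adam19, and the tissue inhibitors of metalloproteases Timp1, Timp2 and Timp3. Their probe sets (groups of probes on the array that together give 1 signal) were taken where the platform annotation gave exactly 1 gene symbol. This found 24 of the 45037 probe sets, for 9 of the 10 genes and of 18193 genes in all, and Mmp25 was not analysed here. RNA came from mouse bone marrow cells on 6 Affymetrix arrays, 3 from mice transplanted with ASXL1-MT marrow, which had a disease resembling myelodysplastic syndrome, and 3 from mock-transplanted control mice. Both groups carry the same transplant prefix in their titles. Cells positive for CD3e, B220 or TER-119 were depleted, a step the series text gives for all mice and the source labels only for mock. Strain, age, the vector and the content of the mock transplant are not in the labels, nor is the number of mice behind each sample, so p-values reflect the scatter of these 6 samples, which could be technical.

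Metalloproteases cut proteins with a zinc ion held in their active site. Neutrophils make MMP8, a collagenase, and MMP9, a gelatinase, late in maturation, store them in granules and release them to cut collagen and basement membrane. ADAM proteases sit in the cell membrane, where ADAM10 and ADAM17 release the outer parts of receptors, adhesion molecules and cytokines. TIMPs bind the active site and block it, with different preferences for the proteases.

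The deposited values were log values of MAS5 signals, taken as log2, with each probe set set to a median of 0 over the 6 arrays. A value is therefore a level relative to the other arrays, levels of different genes cannot be compared, and folds are given for a base of 2. Differences are ASXL1-MT means less mock means, and a gene's value is the mean of its probe sets. Differences were tested with limma over all probe sets or all genes, with Benjamini-Hochberg adjusted p-values and a threshold of 0.05. A probe set is called bright where the rounding of its 3 highest values goes with a signal of 256 or more, which held for 13 of the 24 probe sets here and 38.2% of all. Dimmer probe sets pass that rule at times. Where the groups do not overlap, the higher group alone decides it, so a call made on bright probe sets alone is no support for a difference. An exact permutation test of a single gene in 3 against 3 arrays cannot go below 0.1. Array medians lay between -0.053 and 0.05, and the median difference of all genes was 0.11.

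In ASXL1-MT marrow 4 of the 9 genes fell, Mmp8, Mmp9, Adam8 and Adam19, and 0 rose in limma's test. Of all genes, 4.75% fell and 6.63% rose. Without adjustment (p under 0.05) 5 of the 9 were lower and 0 higher, beside 10.9% and 18.1% of all genes. Among the 24 probe sets 9 fell and 0 rose, where 3.37% of all probe sets fell and 4.73% rose, and without adjustment 11 were lower and 1 higher, beside 10.2% and 16.1% of all. The groups did not overlap, with ASXL1-MT below mock, in 11 of the 24 probe sets, against 13.7% of all probe sets, and with ASXL1-MT above mock in 2, against 21.7%. The median difference of the 9 genes was -1.22. The count of 4 genes was 4 without ASXL1-MT replicate 1 or 2, 2 without ASXL1-MT replicate 3, and 3 without any 1 of the mock replicates. Of all genes, from 0.654% (without ASXL1-MT replicate 3) to 2.88% (without ASXL1-MT replicate 1) fell in these fits. The count of 9 probe sets was 6, 1 and 1 without ASXL1-MT replicates 1, 2 and 3 and 3, 1 and 2 without mock replicates 1, 2 and 3, where 1.4%, 0.155%, 0.0866%, 0.619%, 0.115% and 0.289% of all probe sets fell.

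**Figure D1:**
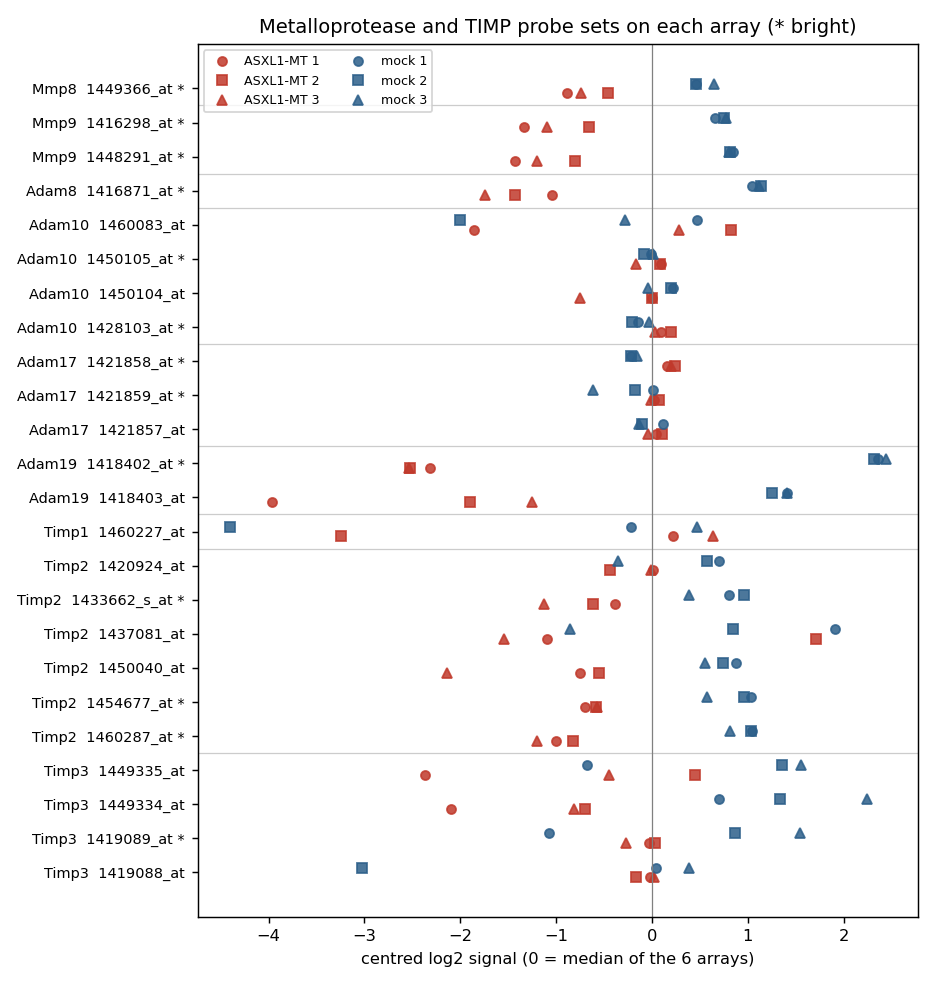
Centred log2 signal (x axis) of each of the 24 probe sets (rows) on the 6 arrays, red for ASXL1-MT and blue for mock, with a marker shape for each replicate number and an asterisk for bright probe sets. The red and blue points of Mmp8, Mmp9, Adam8 and Adam19 stand apart, those of Adam10 and Adam17 lie mostly within 0.75 of 0, and Timp1 has a low point at -3.24 in ASXL1-MT and at -4.40 in mock.

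Of the secreted proteases, Mmp8 is the neutrophil collagenase. Its 1 probe set, 1449366_at, was bright and gave -0.89, -0.46 and -0.74 in ASXL1-MT replicates 1 to 3, while mock replicates gave 0.46, 0.46 and 0.65. The gap of 0.91 between the groups was larger than the range of 0.43 within ASXL1-MT and of 0.19 within mock. Mmp8 was lower by 2.32-fold (log2 difference -1.22, SE 0.17, adjusted p = 0.018). The call of Mmp8 held without ASXL1-MT replicate 1 or 2. It was lost without ASXL1-MT replicate 3 (adjusted p = 0.0785) and without mock replicates 1, 2 and 3 (adjusted p = 0.0512, 0.0585 and 0.0593), with differences from -1.34 to -1.12 over the 6 fits. Fitted among probe sets, where more tests are adjusted for, it passed in 0 of the 6, with adjusted p from 0.063 to 0.108.

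Mmp9, the gelatinase of the tertiary granules, had 2 bright probe sets that gave like values. 1416298_at was -1.33, -0.66 and -1.10 in ASXL1-MT but 0.66, 0.75 and 0.77 in mock, and 1448291_at was -1.43, -0.80 and -1.20 against 0.85, 0.82 and 0.80. Mock arrays lay close together in both, while ASXL1-MT replicate 2 was the highest of its group. The gene was lower by 3.65-fold (log2 difference -1.87, SE 0.20, 95% interval -2.37 to -1.36, adjusted p = 0.0124). Both probe sets passed alone, with adjusted p = 0.0202 and 0.0164, and each in 1 of the 6 leave-one-out fits, with adjusted p of up to 0.0872 and 0.0771. Without ASXL1-MT replicate 3 the gene had an adjusted p = 0.0586, and it passed in the other 5 fits with an array left out.

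Adam8, a protease on the surface of granulocytes and monocytes, had 1 probe set, 1416871_at, which was bright. ASXL1-MT arrays gave -1.04, -1.43 and -1.74, and mock arrays 1.04, 1.14 and 1.12. The groups were 2.07 apart, with ASXL1-MT spread over 0.70 and mock over 0.10. Adam8 was lower by 5.66-fold (log2 difference -2.50, SE 0.21, adjusted p = 0.00803), and it passed whichever array was left out, with adjusted p from 0.0225 to 0.0428 among genes. Among probe sets the same values passed in 2 of the 6, with adjusted p from 0.0382 to 0.0602.

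Adam19, a membrane protease that releases neuregulins, showed the largest difference of the 9 genes. The bright probe set 1418402_at was -2.32, -2.52 and -2.53 in ASXL1-MT but 2.36, 2.32 and 2.44 in mock. All 6 arrays lay within 0.21 of each other inside their group, with 4.63 between the groups. The log2 difference of this probe set was -4.83 (SE 0.15, adjusted p = 0.00257), a 28.4-fold lower signal with an interval of 22-fold to 36.7-fold, and by p-value it ranked 4 of all 45037 probe sets. It passed whichever array was left out, with differences from -4.90 to -4.79.

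The other probe set of Adam19, 1418403_at, was not bright. It gave -3.97, -1.90 and -1.25 against 1.41, 1.25 and 1.41, so that mock was tight and ASXL1-MT spread over 2.72. Its difference was -3.73 (SE 0.72, adjusted p = 0.043), it passed in 1 of the 6 leave-one-out fits, and adjusted p ran from 0.0382 to 0.116. Averaged over both probe sets the gene was lower by 19.4-fold (log2 difference -4.28, SE 0.35, adjusted p = 0.00773). Ordered by difference from the lowest, Adam19 was number 26 of 18193 genes, Adam8 number 209, Mmp9 number 509 and Mmp8 number 1331. The intervals of Adam19 (-5.15 to -3.41) and Adam8 (-3.04 to -1.96) did not overlap, whereas that of Mmp9 overlapped both Adam8 and Mmp8 (-1.64 to -0.79). Differences between genes were not tested.

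The widely expressed sheddases did not pass. Adam10, which cuts Notch receptors among many others, had 4 probe sets. Its bright probe sets were 0.10, 0.08 and -0.17 against -0.01, -0.08 and 0.01 for 1450105_at, and 0.10, 0.20 and 0.03 against -0.14, -0.21 and -0.03 for 1428103_at. The groups overlapped in the former, and in the latter were separated by 0.06. The gene's difference was 0.06 (SE 0.27, adjusted p = 0.909), and its interval of -0.61 to 0.73 allows a change of up to 1.53-fold lower or 1.66-fold higher. Its sign turned with the array scaling, at -0.02 with equal array medians or quantile normalization and -0.04 after cyclic loess. Without ASXL1-MT replicate 2 or mock replicate 2 it was -0.13 or -0.12. The probe set 1460083_at was not bright and spread most, with -1.86, 0.83 and 0.28 against 0.47, -2.0 and -0.28.

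Adam17, which releases tumour necrosis factor and L-selectin, had 3 probe sets. The bright probe set 1421858_at was 0.16, 0.24 and 0.20 in ASXL1-MT but -0.22, -0.22 and -0.16 in mock, groups that did not overlap, with a difference of 0.40 (SE 0.13, adjusted p = 0.132). The other bright probe set, 1421859_at, was 0.02, 0.07 and -0.01 against 0.01, -0.18 and -0.61, and overlapped. The gene's difference was 0.25 (SE 0.14, interval -0.09 to 0.60, adjusted p = 0.291). Each gene was also taken from its probe set of smallest SD within groups, called its least variable probe set here. Adam17 then passed as higher, at 0.40 (adjusted p = 0.0393), where 13.5% of genes did. That probe set is chosen on the same scatter that the test uses, so the choice itself favours a call. Over all genes, 3898 were called in that fit and 2072 as reported.

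**Figure D2:**
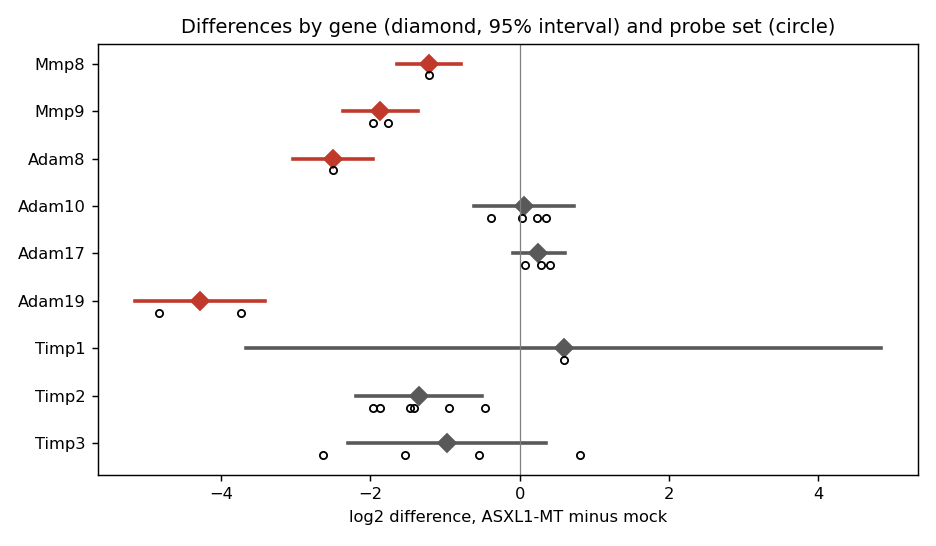
Log2 difference, ASXL1-MT minus mock (x axis), of the 9 genes, as a diamond with its 95% interval from limma, red where the gene passed, and of each probe set as an open circle. Adam19 lies at -4.28 with its interval below those of the other proteases, Adam10 and Adam17 lie near 0, and the probe sets of Timp3 run from -2.64 to 0.81.

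Among the inhibitors, Timp2, which blocks MMPs and also takes part in the activation of MMP2, had 6 probe sets, and 3 fell. 1460287_at was -1.0, -0.82 and -1.20 against 1.04, 1.03 and 0.82 (log2 difference -1.97, SE 0.17, adjusted p = 0.0134). 1454677_at was -0.70, -0.58 and -0.57 against 1.03, 0.96 and 0.57, and 1433662_s_at was -0.39, -0.61 and -1.13 against 0.80, 0.96 and 0.39, with adjusted p = 0.0206 and 0.0419. These were the bright probe sets of the gene, and in each of them the groups did not overlap.

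The other 3 probe sets of Timp2 were not bright and did not pass. In 1450040_at the groups did not overlap, with -0.75, -0.55 and -2.14 against 0.88, 0.74 and 0.55 (difference -1.87, adjusted p = 0.0718). The groups overlapped in 1420924_at and 1437081_at, with differences of -0.46 and -0.95. Averaged over all 6 the gene was at -0.65, -0.22 and -1.10 in ASXL1-MT but 1.06, 0.85 and 0.19 in mock, a difference of -1.35 (SE 0.34, interval -2.20 to -0.51) that missed the threshold (adjusted p = 0.0616). Timp2 passed with the median of its probe sets (-1.59, adjusted p = 0.018) and with an intensity trend in limma (adjusted p = 0.046). It also passed with the probe set of smallest SD within groups (-1.97, adjusted p = 0.00396), a choice that itself favours a call. Of all genes, 5.4%, 5.71% and 7.89% fell in these 3 fits, in that order. Leaving out 1 array at a time gave the gene an adjusted p from 0.0698 to 0.163. Of its called probe sets, 1460287_at passed in 3 of these 6 fits and the others in 0.

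Timp3, an inhibitor bound to the matrix that also blocks ADAM17, had 4 probe sets that disagreed. Only 1419089_at was bright. 1449334_at was -2.10, -0.70 and -0.81 against 0.70, 1.34 and 2.25, without overlap (difference -2.64, SE 0.57, adjusted p = 0.0537). The other 3 overlapped, at -1.54 for 1449335_at, -0.54 for 1419089_at and 0.81 for 1419088_at, the last with a single low value of -3.03 in mock replicate 2. The gene's difference was -0.98 (SE 0.53, interval -2.30 to 0.35, adjusted p = 0.29). Taken from its probe set of smallest SD within groups, 1449334_at, which was not bright, Timp3 passed at -2.64 (adjusted p = 0.0303).

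Timp1, which binds the inactive form of MMP9, had 1 probe set, 1460227_at, which was not bright. ASXL1-MT arrays gave 0.22, -3.24 and 0.64, and mock arrays -0.22, -4.40 and 0.47. One array in each group, both numbered 2, was far below the other arrays, and the remaining 4 lay between -0.22 and 0.64. The difference was 0.59 with an SE of 1.69 and an interval of -3.66 to 4.84 (adjusted p = 0.856), so a change in either direction was not detectable. It was -0.13 without ASXL1-MT replicate 3 and -0.92 without mock replicate 2.

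**Figure D3:**
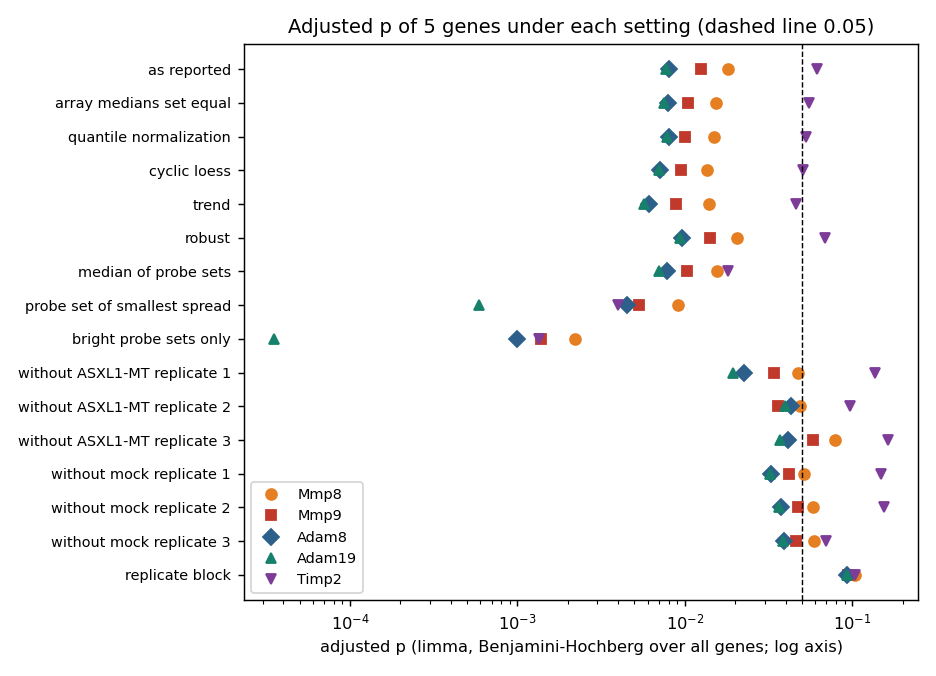
Adjusted p (x axis, log scale) of Mmp8, Mmp9, Adam8, Adam19 and Timp2 under each of the 16 settings (rows), with the threshold of 0.05 as a dashed line. Adam8 and Adam19 lie left of the line in 15 settings, and all 5 genes lie right of it with the replicate number as a block.

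The promoters of Mmp8 and Adam8, which fell, of Timp2, 3 of whose probe sets fell, and of Adam17, which did not pass, are shown to set their sequences side by side. Each is the 250 bases before the start of transcription in RefSeq's GRCm38.p6, 5′ to 3′ on the gene's strand, with capitals at matches, on either strand, to PU.1 (GAGGAA), C/EBP (TTGCNNAA), RUNX (TGTGGT), AP-1 (TGANTCA) and SP1 (GGGCGG), the first 4 being motifs of factors that act in myeloid cells.
Mmp8, chr9:7558179-7558428, + strand: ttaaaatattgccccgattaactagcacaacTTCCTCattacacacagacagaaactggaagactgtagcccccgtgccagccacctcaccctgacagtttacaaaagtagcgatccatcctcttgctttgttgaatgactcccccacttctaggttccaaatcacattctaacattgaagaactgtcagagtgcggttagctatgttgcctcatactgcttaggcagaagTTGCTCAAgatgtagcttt
Adam8, chr7:139992563-139992812, - strand: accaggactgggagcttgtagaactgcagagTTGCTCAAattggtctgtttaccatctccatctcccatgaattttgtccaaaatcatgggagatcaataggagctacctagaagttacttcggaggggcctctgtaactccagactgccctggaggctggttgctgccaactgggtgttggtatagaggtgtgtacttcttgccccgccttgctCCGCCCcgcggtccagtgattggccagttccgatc
Timp2, chr11:118355412-118355661, - strand: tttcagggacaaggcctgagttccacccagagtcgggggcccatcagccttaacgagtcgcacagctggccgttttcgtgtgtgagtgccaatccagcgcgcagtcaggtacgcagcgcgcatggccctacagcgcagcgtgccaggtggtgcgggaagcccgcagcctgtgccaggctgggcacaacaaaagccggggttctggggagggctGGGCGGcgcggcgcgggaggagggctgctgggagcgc
Adam17, chr12:21373633-21373882, - strand: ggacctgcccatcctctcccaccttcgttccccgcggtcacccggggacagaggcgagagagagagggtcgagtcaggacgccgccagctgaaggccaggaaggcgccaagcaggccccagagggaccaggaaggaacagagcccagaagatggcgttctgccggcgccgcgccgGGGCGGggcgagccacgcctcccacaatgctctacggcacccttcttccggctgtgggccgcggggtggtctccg

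The table used here held 11 windows for 9 of the 10 genes, 3 of them for Adam19. A C/EBP match was found for Mmp8 and Adam8, in both as TTGCTCAA, and in 9.56% of all 32851 windows. A PU.1 match was found for Mmp8, Mmp25 and 1 window of Adam19, and in 23.3% of all windows. An SP1 match was found in the windows of Mmp25, Adam8, Adam10, Adam17, Timp1, Timp2 and Timp3, and in 32.7% of all. RUNX and AP-1 matches were found in 1 window of Adam19 each, and in 14% and 6.75% of all. The 5 motifs do not contain each other, and neighbouring matches run together in the capitals. The share of G and C was 44.8% for Mmp8, 52.8% for Adam8 and 50%, 60% and 58.4% for the windows of Adam19. It was 54.4% for Timp1, 65.6% for Timp3, 66% for Mmp25, 68% for Timp2, 70.4% for Adam17 and 74% for Adam10, with a median of 52.4% over all windows. The windows of genes that fell and of genes that did not pass overlapped in this share.

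Other genes of the same system were taken from 8 lists. Some genes, such as Cd44, are in more than 1 list, so the counts of single lists overlap. Of 133 measured genes in these lists, members left out, 22 fell and 8 rose, beside the 4.75% and 6.63% of all genes. Their median difference was -0.12. With ASXL1-MT replicates 1, 2 and 3 left out, 12, 7 and 4 fell and 3, 1 and 0 rose. Of all genes, 2.88%, 1.44% and 0.654% fell and 2.8%, 0.879% and 0.401% rose in these fits. With mock replicates 1, 2 and 3 left out, 13, 7 and 7 fell and 3, 3 and 1 rose. Of all genes, 2.09%, 1.3% and 1.46% then fell and 2.72%, 1.92% and 1.7% rose. Of the 30 called genes, Il1r2, Olfm4, Reck and Vcam1 passed in all 6 of these fits, and 12 passed in 0.

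Of 16 other matrix metalloproteases, 0 fell and 1 rose, with a median difference of 0.28. Without adjustment, 1 was lower and 1 higher at p under 0.05, where 10.9% and 18.1% of all genes were. The gene that rose was Mmp11, also called stromelysin 3, at 1.74, 1.23 and 1.63 against -1.23, -2.15 and -2.68 (log2 difference 3.55, SE 0.41, adjusted p = 0.0132). Its probe set was not bright. Of 21 other ADAM and ADAMTS genes, 2 fell and 1 rose, with a median of 0.30. Adamdec1, a secreted relative of the ADAMs made by macrophages and dendritic cells, was -1.12, -2.33 and -2.27 against 1.12, 3.10 and 2.28 (difference -4.07, adjusted p = 0.0206). Adamts8 fell by 1.53, and Adamts7, which cuts cartilage matrix, had a difference of 3.19. None of the probe sets of these 3 genes was bright, and they passed in 2, 0 and 3 of the 6 fits with an array left out, in that order.

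The list of 9 other inhibitors includes Pcolce and Tfpi2, which are better known for other roles. Of these 9 genes, 1 fell and 0 rose, with a median of -0.07. Without adjustment, 2 were lower and 0 higher at p under 0.05, beside the same 10.9% and 18.1%. The gene that fell was Reck, a membrane-anchored inhibitor of MMP9 and other metalloproteases, with a bright probe set. Reck was -0.78, -0.69 and -0.81 in ASXL1-MT but 0.79, 0.87 and 0.69 in mock. The ranges within groups were 0.12 and 0.18, and the gap between them 1.38. It was lower by 2.91-fold (log2 difference -1.54, SE 0.13, adjusted p = 0.00803).

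Of 15 partners of ADAM10 and ADAM17, 2 fell and 1 rose. Rhbdf2, or iRhom2, which brings ADAM17 to the cell surface in myeloid cells, was -0.58, -0.44 and -0.31 against 0.45, 0.35 and 0.31 (difference -0.82, SE 0.14, adjusted p = 0.0261). The tetraspanins Tspan17 and Tspan33, which carry ADAM10, had differences of -1.14 and 2.13. None of the probe sets of these tetraspanins was bright. Rhbdf2, Tspan17 and Tspan33 passed in 0 of the 6 leave-one-out fits. Both tetraspanin calls were lost when each gene was taken from its least variable probe set. Tspan17 was then at -0.80 (adjusted p = 0.134) and Tspan33 at 1.19 (adjusted p = 0.0616). Robust variances also ended the call of Tspan17 (adjusted p = 0.0538). Of 6 proprotein convertases, which cut the propeptides of many metalloproteases, 1 fell and 1 rose. Furin was -0.27, -0.28 and -0.31 against 0.64, 0.64 and 0.27 (difference -0.80, adjusted p = 0.0365), and Pcsk5 had a difference of 1.21 (adjusted p = 0.0277). None of the 5 probe sets of Pcsk5 was bright. Its difference was 2.21 on the least variable of them (adjusted p = 0.027), and its call was lost with an intensity trend (adjusted p = 0.053). Furin and Pcsk5 passed in 0 of the 6 leave-one-out fits.

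Of 34 proteins known to be shed by ADAM10 or ADAM17, 3 fell and 3 rose, with a median of -0.01. The adhesion molecule Vcam1 was -2.83, -1.65 and -2.43 against 1.65, 2.38 and 2.04 (difference -4.33), and the decoy receptor Il1r2 was -2.0, -2.0 and -2.49 against 2.01, 2.01 and 2.0 (difference -4.17). Fas, the death receptor, named after its values were seen, was the third that fell, at -1.32. The IgE receptor Fcer2a, the scavenger receptor Cd163 and the costimulatory receptor Cd27 had differences of 3.26, 1.57 and 1.34, and passed in 1, 1 and 0 of the 6 fits with an array left out. Cyclic loess (adjusted p = 0.058), equal array medians (adjusted p = 0.0529) or robust variances (adjusted p = 0.0513) each ended the call of Cd27.

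Of 14 genes that bind or activate MMP9, 4 fell and 1 rose, with a median of -0.56. Plaur, the urokinase receptor, was -0.65, -1.24 and -1.33 against 0.65, 1.02 and 0.89 (difference -1.93, SE 0.24, adjusted p = 0.0143). Neutrophil elastase, Elane, had a difference of -1.06, and Itgam and Itgb2, the chains of the integrin Mac-1, of -1.16 and -0.67. Klk1, a serine protease, rose with a difference of 3.25 (adjusted p = 0.0279), which became 0.10 (adjusted p = 0.653) on its least variable probe set. These 5 genes passed in 2, 2, 0, 0 and 1 of the 6 fits with an array left out.

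MMP9 is stored in tertiary granules. The list set beside it holds genes of tertiary granules and secretory vesicles. It also holds genes better known from specific granules, such as Ltf, Lcn2, Camp and Ngp. The genes named below were not sorted by type of granule. Of its 23 measured genes, 11 fell and 0 rose, and without adjustment 13 were lower and 0 higher at p under 0.05, beside 10.9% and 18.1% of all genes. The median difference was -0.72. The granule glycoprotein Olfm4 had a difference of -2.53, the metal transporter Slc11a1 of -1.54, the surface antigen Cd177 of -1.53, the fusion protein Snap23 of -1.27 and the lectin Fcnb of -1.27. With an array left out, from 1 (without ASXL1-MT replicate 3) to 6 (without mock replicate 1) of these genes fell.

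**Figure D4:**
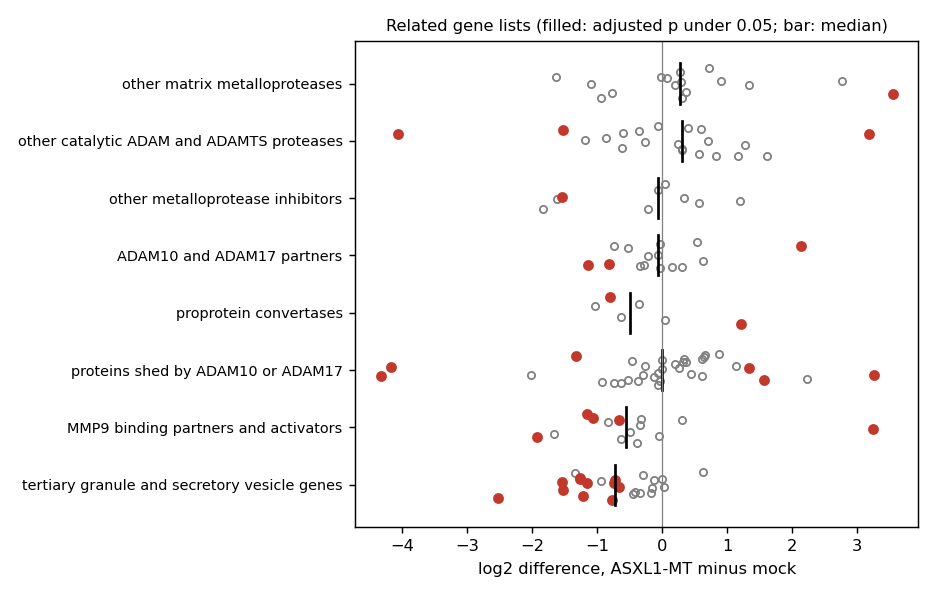
Log2 difference, ASXL1-MT minus mock (x axis), of each measured gene in the 8 related lists (rows, members left out), filled red where adjusted p was under 0.05, with a bar at the list's median. The filled points of the tertiary granule list lie below 0, while those of the proteins shed by ADAM10 or ADAM17 lie on both sides.

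By the mean absolute difference over the 6 arrays, the genes most like Mmp8 were E230032D23Rik, Ehd1 and Gbe1, at 0.056, 0.058 and 0.062 on the log2 scale. Those most like Mmp9 were Pilrb1, Il1rn and AA467197, at 0.066, 0.071 and 0.086. Il1rn, the interleukin 1 receptor antagonist, was -1.30, -0.65 and -1.20 against 0.78, 0.69 and 0.88. Genes were picked for likeness on these same arrays, so a shared pattern follows from the choice. Those most like Timp2 were Gm17250, Abtb1 and Abi1, at 0.135, 0.139 and 0.145.

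Markers of marrow cell types were counted beside the 4.75% of all genes that fell and the 6.63% that rose. Some of them, such as Il1r2, Vcam1, Cd163 and Cd177, are also in the lists of related genes. Of 12 measured mature neutrophil markers, 9 fell and 0 rose. Their mean was -1.08, -1.30 and -1.61 in ASXL1-MT but 1.05, 1.02 and 1.04 in mock. Of 10 megakaryocyte and platelet markers, 6 fell and 0 rose, with means from -1.56 to -0.53 against 0.27 to 1.34, and of 10 dendritic cell markers, 8 rose and 0 fell, with means from 0.85 to 1.10 against -1.95 to -0.90. Of 11 monocyte and macrophage markers, 1 rose and 1 fell, with means from -0.21 to 0.10 against -1.33 to 0.06. Of 13 markers of stroma and endothelium, which also make TIMPs, 3 rose and 1 fell, with means from -0.10 to 0.39 against -1.02 to -0.18. Basophil and mast cell markers fell in 2 of 6 cases and eosinophil markers in 1 of 5, with 0 higher in each. Markers rose in 2 of 7 cases for B cells, 3 of 9 for T and NK cells and 1 of 8 for erythroid cells, with 0 lower in each, and in 4 of 8 for stem and progenitor cells, with 1 lower. The part of these cells in the differences of the proteases was not tested. Depletion of cells positive for CD3e, B220 or TER-119 is given for all mice in the series text but only for mock in the source labels. Whether a difference in depletion between the groups bears on these counts or on the proteases was not tested. In such samples fewer cells of a type and less RNA per cell cannot be told apart, and centring removed the levels that would show whether a defining marker was absent.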

How the data were processed

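The authors hybridised RNA of 3 ASXL1-MT and 3 mock samples to 1-colour arrays and, per the submitters' processing notes, made signals with MAS5. The deposited table held log2 values as judged from the values themselves, since log base and centring are not given in the sources used here. Row medians were 0 to within 5e-07. The number of arrays limits the precision, and depth has no meaning here.

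Symbols came from the platform annotation, with 1 symbol each for 34945 probe sets; 932 had several and 9160 none here. Bright probe sets (17205) had their 3 highest values on a step with an exponent of 20 binary places, within 0.1 of a step. The median SD within groups was 0.18 for them and 0.81 for the rest. Groups and replicate numbers came from the sample titles. Fits used limma 3.58.1 (lmFit, eBayes) under R 4.3.3, with group as the only term and no filter, and were tested on simulated data. The members and lists were chosen with earlier results of these data known, and the lists were written from general knowledge. Named genes were all members and, from each list of related genes, up to 5 called genes with the largest difference, or the 2 of smallest p where none passed. Mmp9's promoter was not used here. Alternatives were 3 array scalings, trend and robust variance models, other gene summaries, bright probe sets alone, each array left out and a replicate block.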

Additional observations from a re-analysis of the deposited data

How the results depend on the processing

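The counts of 4 members and 9 member probe sets that fell stayed within 1.5 times under each of the 3 array scalings, the trend and robust variance models and, for members, both other gene summaries. The restriction to bright probe sets is no check of these falls, since the mock arrays alone made 8 of the 9 probe sets bright. Members that rose numbered 0 as reported, 1 with the least variable probe set per gene and 1 on bright probe sets alone, and member probe sets that rose numbered 0 and, on bright probe sets alone, 1, where 27.6% of all genes and 23.6% of all probe sets kept by that rule rose. With an array left out, members that fell ranged from 2 to 4, member probe sets that fell from 1 to 6, and related genes from 4 to 13 lower and from 0 to 3 higher, and 0 members rose in any of these fits. Adam10, which did not pass in any setting, changed sign to -0.02 (equal array medians), -0.02 (quantile) and -0.04 (cyclic loess). Leaving out an array gave -0.13 to 0.22 for Adam10 and -0.92 to 1.82 for Timp1. The cause was not tested, except that fits without an array have fewer samples.

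Titles of both groups carry replicate numbers 1 to 3, which no label ties to a shared batch. Deviations of same-numbered arrays from their group means correlated at -0.009, -0.012 and -0.009 across all probe sets, no higher than other pairs. Most of these probe sets were not bright, so this check cannot decide whether the numbers mark a shared batch or pairing. With the replicate block, 0 members, 0 member probe sets and 0 related genes passed in either direction by limma, as did 0 of all genes, of which 4568 had an unadjusted p under 0.05. The adjusted p was 0.0935 for Adam8 and Adam19, 0.0945 for Mmp9 and 0.104 for Mmp8 and Timp2. Of all genes, 1207 were called higher and 865 lower as reported, 995 and 1024 (equal array medians), 969 and 1068 (quantile) and 939 and 1077 (cyclic loess). Signal over background is unknown for single values, so dim probe sets such as that of Timp1 limit what can be said.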
